A study of Dendrobium catenatum with 16 samples.

Results

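Of the 16 libraries in the series, 8 came from the second of its RNA sequencing experiments, and these 8 split into 4 with high and 4 with low levels of cell division transcripts. The sides were chosen by the measured counts of all genes, along their main axis of variation, and the split follows neither the dose of 6-BA nor the week of sampling. The 4 high libraries were those without 6-BA at 2 weeks, with 0.5 mg/L at 2 weeks, without 6-BA at 4 weeks and with 2 mg/L at 4 weeks. The 4 low libraries were those with 1 mg/L at 2 weeks, 2 mg/L at 2 weeks, 0.5 mg/L at 4 weeks and 1 mg/L at 4 weeks. Values below are listed in that order. Because the counts chose the split, its values are given as a description and carry no test.

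All 8 libraries were made from the young leaves, shoots and stems of plantlets of Dendrobium catenatum, an orchid with polysaccharide-rich medicinal stems. The plantlets were 9 months old, had been raised from seed on Murashige and Skoog medium with sucrose, agar and potato, and were moved to medium with 0, 0.5, 1 or 2 mg/L of 6-BA for 2 or 4 weeks. 6-BA (benzyladenine) is a synthetic cytokinin, and the series examined how such hormones change genes related to medicinal components. Each dose and week has 1 library, and the labels do not say how many plantlets or vessels went into it. The first experiment served as an independent comparison: plantlets 2 months old were kept for 3 weeks with water, NAA (a synthetic auxin) at 0.1 mg/L, 6-BA at 1 mg/L or both, with 2 libraries each.

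In a plant shoot, cells divide mainly in the meristems and in young leaf primordia, and leave the cycle as the organ matures. Progress through the cycle depends on cyclins that bind cyclin-dependent kinases, on licensing of replication origins before DNA synthesis, on histone supply during it, and on timed destruction of mitotic cyclins by the anaphase-promoting complex. Transcripts of mitotic and replication genes are therefore abundant in tissue with many cycling cells and scarce in mature leaf and stem. In bulk tissue, fewer cells of a type and less RNA per cell cannot be told apart.

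The first principal component of log2 CPM (counts per 1000000 counts of the library) held 58.8% of the variance over 21267 measured genes, and the second held 9.84%. Scores on the first component were 38.1, 78.2, 128 and 116 in the high libraries and -78.5, -104, -109 and -68.4 in the low ones. The library without 6-BA at 2 weeks lay nearest to the low side. Pearson's r between libraries, over the measured genes, was 0.917 to 0.952 for the 12 pairs on 1 side and 0.798 to 0.918 for the 16 pairs across sides, which share their genes and are given as a description. Both libraries without 6-BA are high and both at 1 mg/L are low. Every low library had 6-BA, so the split and the presence of 6-BA are partly confounded. At 0.5 mg/L the 2-week library is high and the 4-week library low, and at 2 mg/L the order is the opposite. Each side holds 2 libraries of each week.

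Depth was even, with totals of 15.1 to 16.3 in units of 1e6 counts. TMM factors, which correct for library composition, were 1.02 to 1.14 in the high and 0.856 to 0.992 in the low libraries. The median difference of all measured genes between the sides was 0.23 on the log2 scale by library totals and -0.01 with TMM-scaled library sizes, so small differences shift by about that amount with the scaling. Between 19077 and 20441 genes had at least 10 counts in each library.

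A gene was counted as with the split when all 4 high libraries exceeded all 4 low ones and the mean log2 CPM differed by at least 1, and as against it in the mirror case. With the split went 2481 genes, 11.7% of those measured, and against it 237, which is 1.11%. Counts of gene lists below are to be read beside these shares. Of these genes 91.3% were with the split by library totals, and 76.8% under TMM scaling, which gave 1930 with and 582 against. On log2(FPKM + 1) there were 1483 with and 429 against, and with a filter that needs every library above the count minimum 1432 and 178. Without any minimum on the difference, 4552 genes (21.4%) were higher in every high library and 806 (3.79%) were lower. Low libraries held no count at all for 77 of the genes with the split and at most 3 counts in sum for 162. The difference reached 3 on the log2 scale for 770 genes with the split and 5 for 224 of them, whereas 14 genes against it reached -3 and 2 reached -5. Median differences were 2.15 and -1.37. The count of genes against the split rose when some single libraries were left out. It became 544 without the untreated library of 2 weeks, 410 without 1 mg/L and 468 without 2 mg/L at 2 weeks. Of the 237 genes, 232, 233 and 222 were kept in these settings. A side of 3 libraries separates more easily by construction. At the threshold, growth-regulating factor 4 (LOC110113043) and probable fructokinase-1 (LOC110095303) were just inside at 1.001 and 1.000, while pumilio homolog 1 (LOC110095668) and the RNA-binding protein PEPPER (LOC110107812) stayed just outside at 0.9998 and 0.9997. On the other side, the factor MYBS3-like (LOC110115365) at -1.005 and sugar transport protein 7 (LOC110105543) at -1.01 were inside, and knotted-1-like 13 (LOC110100286) at -0.996 and the RING finger protein ATL33-like (LOC110115296) at -0.995 were outside.

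Together the 2481 genes took 6.18%, 8.52%, 13.5% and 11.7% of the counts in the high libraries and 2.96%, 2.57%, 2.42% and 2.93% in the low ones. The 237 genes against the split took 1.42%, 1.30%, 0.579% and 0.778% in the high libraries and 2.08%, 2.12%, 3.12% and 2.92% in the low ones. The sides did not overlap in either share, which the choice of genes ensures. Within the high side the libraries differed: the one without 6-BA at 2 weeks was the lowest of the 4 for 78.0% of the genes with the split, and the one without 6-BA at 4 weeks was the highest for 60.0%. Within the low side no library dominated the genes with the split, since the library at 1 mg/L and 4 weeks was the highest for 36.6% of them and that at 1 mg/L and 2 weeks for 33.6%. Genes against the split were highest in one of the 4-week low libraries, at 0.5 mg/L for 42.6% and at 1 mg/L for 35.4%. Genes with the split had a lower median mean log2 CPM (2.14) than all measured genes (3.88), and those against it had 2.98. Their median lengths were 1577 and 1184 bases, beside 1530 for all measured genes. Genes with a protein kinase domain numbered 134 with and 14 against the split, of 758 measured.

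**Figure D1:**
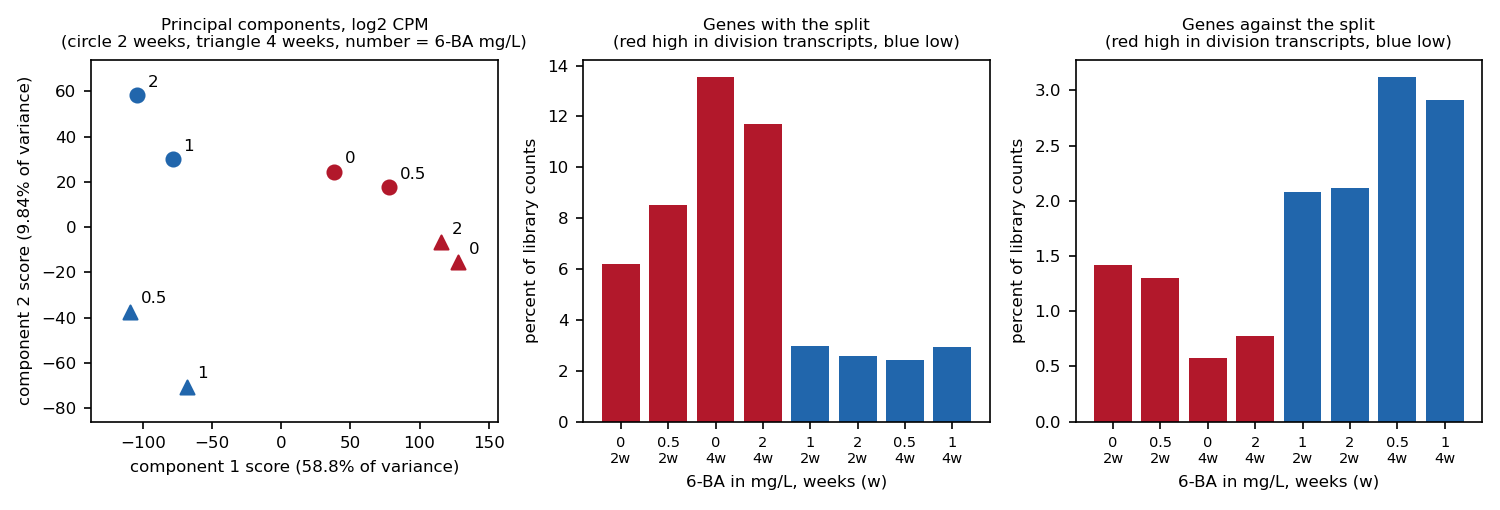
Left, scores of the 8 libraries on the first (58.8% of variance) and second (9.84%) principal components, with the 6-BA dose beside each point. Middle and right, percent of each library's counts in the 2481 genes with and the 237 genes against the split; the library without 6-BA at 2 weeks is the least extreme of the high libraries in all 3 panels.

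The panels of component scores and count shares show the same order within the high side, with both 4-week libraries at the far end. In the low libraries the share of genes with the split is nearly flat, while the share of genes against it is higher in both 4-week libraries than in both 2-week ones.

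Cell cycle genes were concentrated among the genes with the split. Of 393 measured genes in the cell cycle and histone lists, 185 (47.1%) were with it and 0 against it, and 359 had a positive difference, with a median of 1.07. These 185 are 7.46% of all genes with the split, so most of the genes that follow it belong to other groups. As cell division transcripts entered the definition of the split, these counts only describe how far it reaches.

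Among the A- and B-type cyclins, which activate the kinases of mitosis, 8 of 11 measured genes were with the split. Cyclin-B1-1 (LOC110096329) had 39.9, 62, 85.5 and 79.6 CPM in the high libraries and 0, 0.125, 0 and 0 CPM in the low ones. Cyclin-A1-4 (LOC110103887) had 21.5, 34.5, 45.2 and 43.9 CPM in the high libraries and 0, 0.25, 0 and 0 CPM in the low ones. Both were thus at or near 0 in every low library. A gene annotated as mitotic-specific cyclin-2-like (LOC110097268) followed them, with 27.5 to 61.7 CPM on the high side and at most 0.323 CPM on the low. The other members behaved otherwise: cyclin-B1-2 (LOC110099071) had 142, 155, 196 and 142 CPM in the high libraries and 154, 97.9, 116 and 167 CPM in the low ones, and the sides overlapped. Putative cyclin-B3-1 (LOC110112667) also overlapped, at 18.1 to 23.6 and 16.4 to 22.7 CPM. Cyclin S13-7 (LOC110114574), at 7.98, 16.4, 14.6 and 21.4 CPM against 0.0647, 3.37, 4.24 and 10.3 CPM, overlapped through the 1 mg/L library of 4 weeks and the untreated library of 2 weeks. The median difference of the 11 genes was 4.94, or 4.13 with counts under 3 set to 3.

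Of 20 D-type and other cyclins 8 were with the split, and D-type cyclins act at entry into the cycle. Cyclin-D3-2 (LOC110104947) had 12.8, 24.2, 36.1 and 27.7 CPM in the high libraries and 0.711, 0.811, 0.615 and 2.25 CPM in the low ones, a difference of 4.54 on the log2 scale. Cyclin-D2-1 (LOC110098325) differed by 3.86. The plant-specific B-type kinases of the G2 and M phases followed the cyclins. CDKB2-1 (LOC110106063) had 31.2, 53.6, 83.8 and 63.8 CPM in the high libraries and 2.59, 1.62, 2.77 and 1.33 CPM in the low ones. CDKB1-1 (LOC110098343) had 17.9 to 40.2 and 0.984 to 3.25 CPM. By comparison the A-type kinase, cell division control protein 2 homolog A (LOC110103529), which is present through the whole cycle and in cells that have left it, had 82.1, 119, 158 and 141 CPM in the high libraries and 88.1, 80.0, 62.1 and 67.7 CPM in the low ones. Its sides overlapped and the mean difference was 0.72. Of 14 kinase and kinase-subunit genes only 3 were with the split, and of 9 kinase inhibitor genes 2, among them inhibitor 5 (LOC110106646) with a difference of 1.64.

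Destruction of mitotic cyclins depends on the anaphase-promoting complex and its activators. The activator CDC20.2 (LOC110115801), which works in mitosis, had 61.1, 94.2, 121 and 115 CPM in the high libraries and 0.0647, 0.125, 0 and 0.861 CPM in the low ones. A ubiquitin-conjugating enzyme E2 20-like (LOC110102917), of a type that serves this complex, had 38.1 to 86.2 CPM against at most 0.199 CPM. Of 27 checkpoint and complex genes, 10 were with the split. Activators of the FIZZY-RELATED (CDH1) type were divided. FIZZY-RELATED 3 (LOC110100357) had 7.54 to 19.1 CPM on the high side and at most 0.453 CPM on the low. FIZZY-RELATED 2 (LOC110094715) had 39.7, 41.3, 34.4 and 44.3 CPM in the high libraries and 49, 47.9, 101 and 61.3 CPM in the low ones, so every low library exceeded every high one, by -0.64 in the mean log2 value.

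Replication genes were with the split in 16 of 29 licensing and origin proteins and in 21 of 42 genes of the fork and nucleotide supply, with median differences of 1.22 and 1.04. MCM7 (LOC110102753), a subunit of the replicative helicase, had 18.3, 24.7, 44.4 and 48.3 CPM in the high libraries and 4.46, 1.5, 1.85 and 3.51 CPM in the low ones. The origin licensing factor CDT1-like a (LOC110099890) differed by 3.63. The sliding clamp PCNA (LOC110115887) had 35.1, 54.9, 104 and 74 CPM in the high libraries and 4.33, 2.62, 3.94 and 5.83 CPM in the low ones, and its lowest high library stood well above the highest low one. Replication protein A subunit 70B (LOC110112593), which coats single-stranded DNA, had 26.4 to 68.3 and 0.431 to 1.59 CPM. These genes kept low but measurable levels in the low libraries, unlike cyclin-B1-1.

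Mitotic machinery followed. Kinesins, the motor proteins of the spindle and of the phragmoplast, were with the split in 31 of 55 cases. Kinesin KIN-14J (LOC110111695) had 20.4, 32.6, 50.2 and 59.2 CPM in the high libraries and 0.0647, 0.125, 0 and 0.596 CPM in the low ones. KIN-7A (LOC110099751), related to the NACK kinesins of cytokinesis, had 12.3 to 36.6 and 0.265 to 0.499 CPM, and KIN-10C (LOC110094173) 10.9 to 33.2 and 0.125 to 0.398 CPM. Of 66 spindle, microtubule-associated and tubulin genes, 22 were with the split. The spindle assembly factor TPX2 (LOC110105384) had 30.2, 38.7, 55 and 71.8 CPM in the high libraries and 0.388, 0.187, 0.615 and 0.795 CPM in the low ones. An EB1C-like plus-end binding protein (LOC110104949) had 17.6 to 52.2 CPM against at most 0.133 CPM. Aurora kinases were divided: the Aurora-1-like gene LOC110095222 had 11.7 to 28.2 and 0.312 to 1.29 CPM, while the gene annotated Aurora-1 (LOC110095210) overlapped, with 22.7 to 35 and 23 to 24.7 CPM. The cytokinesis syntaxin KNOLLE-like (LOC110106372) had 23.6, 41.1, 46.7 and 42.9 CPM in the high libraries and 0.776, 2.5, 0.246 and 1.39 CPM in the low ones, and dynamin-related protein 5A (LOC110095306) 8.88 to 19.7 and 0.133 to 0.615 CPM.

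Core histones, which package newly made DNA, were with the split in 31 of 44 cases, with a median difference of 2.34. A histone H4 gene (LOC110094121) had 86.5, 99.1, 196 and 181 CPM in the high libraries and 2.72, 1.93, 1.35 and 8.28 CPM in the low ones. The summed CPM of the 44 genes ran from 4999 to 9546 on the high side and from 2073 to 3041 on the low. Because histone genes are near-identical copies, the counts of single members are uncertain. Chromosome structure genes contributed 17 of 38, among them a pair of DNA topoisomerase 2 genes. The first (LOC110107676) had 58.8, 109.8, 157 and 165 CPM in the high libraries and 3.69, 1.93, 1.97 and 3.11 CPM in the low ones, and the other (LOC110114510) 56.8 to 166 and 2.97 to 12.5 CPM. Of 11 DNA methylation and heterochromatin genes, 6 were with the split. The maintenance DNA methyltransferase 1 was represented by LOC110101174, with 39.5, 75.6, 109 and 104 CPM in the high libraries and 0.517, 0.125, 0.677 and 2.05 CPM in the low ones, and by LOC110093912, with 41.2 to 104 and 0.369 to 1.39 CPM. The chromatin remodeller DDM1 (LOC110105194), which acts with it, differed by 4.39. The chromatin protein HMG1/2-like (LOC110106877) had 24.3, 35.9, 72.2 and 55.7 CPM in the high libraries and 0, 0, 0 and 1.19 CPM in the low ones, so the only low library above 0 was 1 mg/L at 4 weeks.

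**Figure D2:**
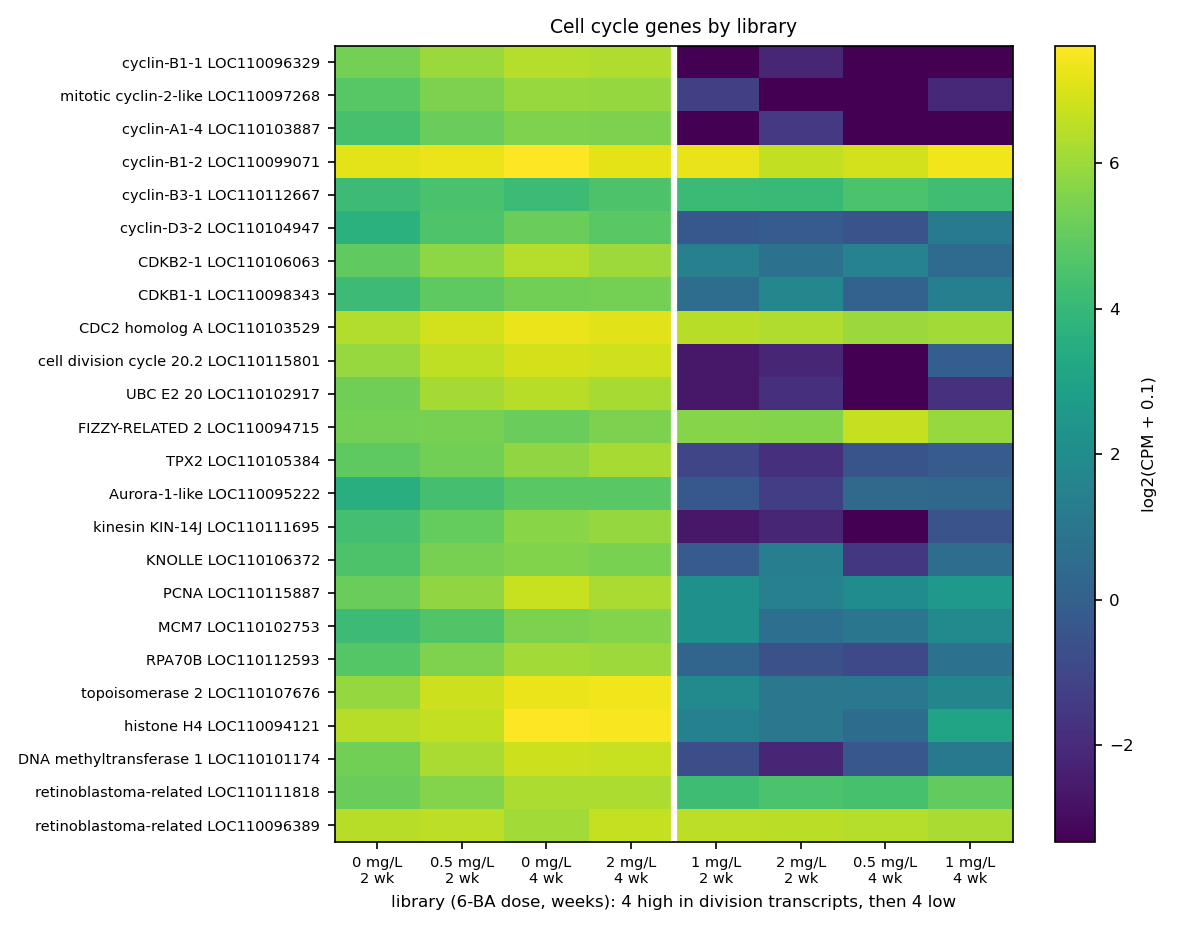
Heat map of log2(CPM + 0.1) for 24 cell cycle genes (rows) in the 4 high and 4 low libraries (columns, divided by the white line). Cyclin-B1-1, CDC20.2 and KIN-14J are near 0 in all low libraries, whereas cyclin-B1-2, cyclin-B3-1, CDC2 homolog A and one retinoblastoma-related gene overlap between the sides. FIZZY-RELATED 2 is lower in every high library than in any low one.

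The heat map of cell cycle genes shows several kinds of row. Some genes, such as cyclin-B1-1, cyclin-A1-4 and KIN-14J, are near 0 in the low libraries. Others, such as CDKB2-1, MCM7 and PCNA, keep a residual level there, and cyclin-B1-2 and cyclin-B3-1 overlap between the sides. FIZZY-RELATED 2 is reversed, with every high library below every low one. The low libraries therefore still contain cell cycle transcripts of some kinds, and are called here low in division transcripts and not resting.

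Regulators of the cycle moved less. Of 17 E2F, retinoblastoma and MYB3R genes, 5 were with the split, with a median difference of 0.31. The E2FE-like gene (LOC110111670), an atypical E2F in Arabidopsis, had 64.6, 141, 224 and 199.7 CPM in the high libraries and 58.1, 24.2, 21.5 and 34.4 CPM in the low ones. A tesmin/TSO1-like CXC protein (LOC110102452), of the family that joins MYB and E2F in the plant DREAM complex, differed by 2.56. Retinoblastoma-related proteins restrain E2F. One gene (LOC110111818) had 34.9, 48, 78.3 and 77.8 CPM in the high libraries and 18.3, 23.1, 21.7 and 32.1 CPM in the low ones, and was with the split, whereas the other (LOC110096389) had 87.8, 92.7, 67.9 and 99.6 CPM in the high libraries and 93.4, 90.9, 85.6 and 74.4 CPM in the low ones and overlapped. MYB3R factors bind the promoters of mitotic genes. The activator-type MYB3R-4 (LOC110092292) overlapped at 74.1 to 127 and 63.8 to 79.8 CPM, and MYB3R-3 (LOC110110250) had 8.75, 6.98, 4.53 and 6.48 CPM against 13.8, 7.74, 16.1 and 11.7 CPM, with overlap.

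Growth-regulating factors, which promote cell proliferation in leaf primordia, contributed 7 of 10 measured genes and all 10 had a positive difference, with a median of 1.84. Growth-regulating factor 6 (LOC110107122) had 27.3, 74, 123 and 112 CPM in the high libraries and 1.03, 0.936, 0.554 and 3.64 CPM in the low ones. Growth-regulating factor 10 (LOC110104491) had 10.3 to 19 and 0.0624 to 2.45 CPM. AINTEGUMENTA maintains cell proliferation in Arabidopsis organs, and of the genes annotated as ANT, LOC110107204 had 12.7, 21.1, 41.9 and 37.8 CPM in the high libraries and 0.453, 0.374, 0.123 and 2.19 CPM in the low ones and LOC110101314 11.6 to 38.5 and 0.928 to 3.1 CPM. YABBY 4 (LOC110093862), of a family that patterns lateral organs, had 35.8, 64.5, 83.7 and 97.5 CPM in the high libraries and 4.98, 2.25, 2.28 and 3.58 CPM in the low ones. WUSCHEL-related homeobox 8-like (LOC110095151) differed by 2.41. The heat stress factor B-4c (LOC110098261) was also with the split, at 13.4 to 49 and 0.0615 to 0.398 CPM.

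Meristem identity genes were divided. In all, 17 of 74 shoot meristem and leaf patterning genes were with the split and 0 against it. The class I knotted-like gene LET6 (LOC110097810), which marks the meristem itself, had 29, 49.3, 129 and 84 CPM in the high libraries and 32, 10.4, 11.9 and 18.7 CPM in the low ones and overlapped only through the untreated library of 2 weeks, which lay below the 1 mg/L library of that week. CUP-SHAPED COTYLEDON 1 (LOC110107219), a boundary factor, had 6.71, 24.6, 2.1 and 5.84 CPM against 6.01, 3.68, 5.54 and 3.31 CPM, without any order by side. The 3 class II knotted-like genes followed here, a class expressed in differentiating organs, ran the opposite way. Knotted-1-like 3 (LOC110094050) had 73, 60.6, 32.4 and 37 CPM in the high libraries and 85, 82.2, 90.7 and 85.1 CPM in the low ones, with no overlap and a difference of -0.84. LET12 (LOC110091932) differed by -0.98 and knotted-1-like 13 (LOC110100286) by -0.996, and neither overlapped. All 3 missed the threshold of -1, and under TMM scaling 3 genes of the list were against the split. The receptor kinase ERECTA (LOC110094200), which promotes stem growth and patterns the epidermis, had 103, 214, 338 and 382 CPM in the high libraries and 60.1, 90.2, 54.4 and 52 CPM in the low ones.

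Protoderm and cuticle genes were with the split in 12 of 31 cases, and the median difference was 0.79. Protodermal factor 1 (LOC110100378), a marker of the outer cell layer of young organs, had 74.5, 86.6, 93.2 and 94.2 CPM in the high libraries and 1.49, 0.749, 1.35 and 0.464 CPM in the low ones. The HD-ZIP IV factors that specify epidermis followed: ROC3 (LOC110096006) had 12 to 23.4 and 0.936 to 2.46 CPM, and the ROC8 genes LOC110111543 and LOC110101000 differed by 3.39 and 3.35. The wax synthesis gene ECERIFERUM 26-like (LOC110096481) had 86.5, 79.7, 113 and 82.1 CPM in the high libraries and 5.76, 0.562, 0.861 and 7.69 CPM in the low ones. An alcohol-forming fatty acyl-CoA reductase (LOC110112054), which makes fatty alcohols, had 23.6 to 66.5 and 2.83 to 4.17 CPM, whereas fatty acyl-CoA reductase 3 (LOC110114508) overlapped, with 27, 23.1, 10.7 and 14.4 CPM against 70.7, 26.3, 24.2 and 28.6 CPM. Lipid transfer and surface proteins were among the genes with the largest differences. The lipid-binding protein gene LOC110093376 had 68.4, 229, 464 and 221 CPM in the high libraries and 0, 0.125, 0 and 1.52 CPM in the low ones, early nodulin-like protein 3 (LOC110113446) 77.4 to 145 CPM against at most 0.517 CPM, and the proline-rich protein DC2.15-like (LOC110113173) 20.6 to 197 CPM against at most 2.65 CPM. The inactive receptor kinase gene IMK2 (LOC110112920), named for inflorescence meristem kinases, had 41, 54.4, 84.1 and 84.8 CPM in the high libraries and 0.129, 0.187, 0 and 0.199 CPM in the low ones.

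Cell wall genes went both ways. Expansins, which loosen walls during cell enlargement, were with the split in 7 of 16 cases, and expansin-A6-like (LOC110110233) had 28.9, 26.4, 71.2 and 55.3 CPM in the high libraries and 4.2, 3.12, 0.800 and 5.96 CPM in the low ones. Extensin, proline-rich and arabinogalactan proteins contributed 25 of 55, with a median difference of 1.75 (1.61 with counts under 3 set to 3), and pectin-modifying enzymes 28 of 90 with and 1 against. A pectinesterase (LOC110092954) had 62.4, 44.9, 137 and 126 CPM in the high libraries and 7.63, 0.874, 0.246 and 5.3 CPM in the low ones, and pectate lyase 20 (LOC110111116) 7.28 to 34.3 and 0.194 to 0.464 CPM. Endoglucanase 3 (LOC110109627) had 65.2, 136, 363 and 315 CPM in the high libraries and 2.72, 2.68, 2.09 and 4.64 CPM in the low ones. Cellulose synthase-like D proteins build walls at the division plane and in tip growth, and D5 (LOC110104407) had 34 to 65.6 and 1.68 to 3.01 CPM and D2 (LOC110101672) 23.3 to 93 and 7.38 to 14.8 CPM. Of the 31 measured genes of the cellulose synthase superfamily 4 were with the split and 1 was against it.

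Xyloglucan endotransglucosylase/hydrolases (XTH), which cut and rejoin wall xyloglucan, were listed together with endoglucanases, and 14 of these 37 genes were with the split and 4 against it. XTH 9 (LOC110093026) had 47.3, 63.8, 152 and 107 CPM in the high libraries and 1.68, 1.31, 2.03 and 0.464 CPM in the low ones, and XTH 5 (LOC110093423) 23.6 to 65.7 and 0.123 to 0.711 CPM. XTH 2 (LOC110095678) had the reverse, with 1.02, 2.97, 10.4 and 2.25 CPM in the high libraries and 63.4, 25.7, 115 and 330.3 CPM in the low ones. XTH 33 (LOC110108817), XTH 22 (LOC110098232) and XTH 30 (LOC110116273) were the other members against the split, with differences of -3.27, -1.71 and -1.69. XTH 2 and XTH 33 were highest in the 1 mg/L library of 4 weeks, at 330.3 and 112 CPM, while XTH 22 and XTH 30 were highest in the 0.5 mg/L library of 4 weeks, at 49.6 and 179 CPM.

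**Figure D3:**
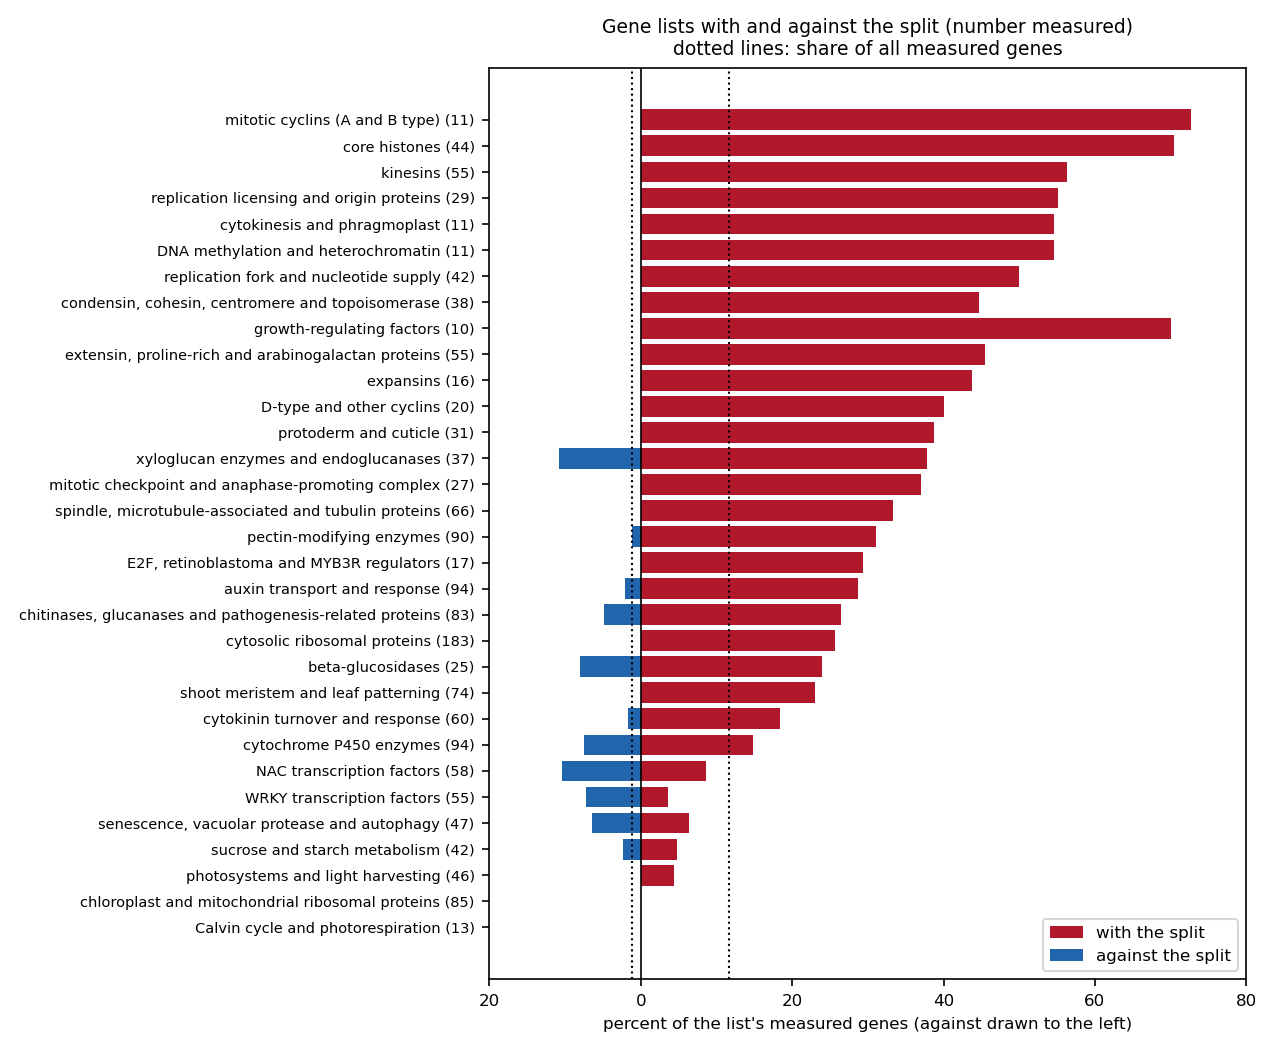
Percent of the measured genes, for a choice of the lists, that were with the split (red, to the right) and against it (blue, to the left); numbers of measured genes are in parentheses and dotted lines mark the shares over all measured genes, 11.7% and 1.11%. Mitotic cyclins, core histones and growth-regulating factors have the longest red bars drawn, and xyloglucan enzymes and NAC factors the longest blue ones.

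The bars of list shares place most of the growing-tissue lists drawn next to the cell cycle lists and well to the right of the share over all genes. Shoot meristem and leaf patterning genes, at 23.0%, rank below chitinases, glucanases and pathogenesis-related proteins, at 26.5%. Lists not drawn include the cellulose synthase superfamily, at 12.9%, and cyclin-dependent kinases and their inhibitors, at 21.4% and 22.2%. Lists of primary metabolism and of the plastid have short bars or none. Every list was composed of words in gene descriptions and with earlier results of these data known, so the bars describe the split and test nothing.

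Hormone genes with the split were led by auxin genes, 27 of 94, with 2 against. Auxin transporter-like protein 2 (LOC110104313), an influx carrier, had 20.7, 41.4, 69.8 and 70.6 CPM in the high libraries and 0, 0.0624, 0.123 and 0.663 CPM in the low ones. The efflux carrier PIN1b (LOC110114140), which directs auxin to sites of organ formation, had 49.9 to 99.7 and 1.17 to 5.57 CPM. Auxin response factor 5 (LOC110101753), needed for primordium initiation in Arabidopsis, had 17.3, 22.7, 48.3 and 52.5 CPM in the high libraries and 2.65, 2.87, 4.18 and 3.98 CPM in the low ones. The synthesis gene YUCCA2-like (LOC110108948) had 5.05 to 7.42 CPM and was at 0 in all low libraries but one, with 0.0624 CPM. The PIN-LIKES 7-like gene (LOC110101370), of a family of intracellular auxin carriers, was against the split, with 28.4, 27.7, 5.9 and 20.4 CPM in the high libraries and 73.7, 52, 117 and 62.4 CPM in the low ones.

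Of 60 cytokinin genes 11 were with the split and 1 was against it, or 10 and 3 under TMM scaling. The response regulator ORR1 (LOC110108192) had 19, 38.7, 73.3 and 48.8 CPM in the high libraries and 15.9, 13.4, 6.83 and 18.1 CPM in the low ones, with a narrow gap between the untreated library of 2 weeks and the 1 mg/L library of 4 weeks. ORR6-like (LOC110108467) had 0.511 to 3.08 CPM and was at 0 in 3 of the 4 low libraries. ORR9 (LOC110101124) ran the other way without reaching the threshold, at 19.2, 22.3, 16.2 and 19.8 CPM against 26.1, 34.3, 24 and 39.8 CPM. Cytokinin dehydrogenases break the hormone down. Dehydrogenase 11 (LOC110094204) had 826, 315, 324 and 329.5 CPM in the high libraries and 590.3, 749, 632 and 997 CPM in the low ones, and overlapped because the untreated library of 2 weeks was as high as the low libraries. Dehydrogenase 4-like (LOC110102256) had 9.38 to 14.5 and 7.74 to 30.1 CPM, dehydrogenase 3 (LOC110106158) 2.87 to 5.18 and 1.81 to 4.12 CPM, and dehydrogenase 6 (LOC110105324) 0.192 to 4.04 and 0.800 to 11.3 CPM. Dehydrogenase 3-like (LOC110107036) had 0.319, 0.618, 0.0656 and 1.41 CPM in the high libraries and 1.16, 2.56, 14.5 and 28.8 CPM in the low ones, a difference of -3.68, and overlapped between the 2 mg/L library of 4 weeks and the 1 mg/L library of 2 weeks. Gibberellin-regulated peptides were split: protein 6 (LOC110110534) had 40.2 to 113 and 0.554 to 4.44 CPM, and protein 11-like (LOC110103870) had 2.04, 3.09, 2.56 and 3.4 CPM in the high libraries and 15.8, 6.18, 54.7 and 27.2 CPM in the low ones. Abscisic acid 8'-hydroxylase 3 (LOC110112069), which inactivates that hormone, was with the split by 3.06, and abscisic stress-ripening protein 1 (LOC110113024) was against it, at 8.72 to 31.8 and 43.6 to 68.3 CPM.

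Cytosolic ribosomal proteins moved together but by a small amount. In all, 47 of 183 were with the split and 0 against it, 179 had a positive difference, and the median was 0.81. Under TMM scaling 14 were with the split and the median was 0.57. Ribosomal protein S7 (LOC110100776) had 57.6, 73.3, 109 and 81.4 CPM in the high libraries and 18.6, 16.7, 13.2 and 23.7 CPM in the low ones. None of the 85 chloroplast and mitochondrial ribosomal protein genes was with or against the split, and their median of 0.05 became -0.18 under TMM scaling. Ribosome assembly genes contributed 6 of 53, among them nucleolar protein 56-like (LOC110105050), with a difference of 1.36.

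Photosynthesis genes, used as a check on green leaf tissue, were mostly lower in the high libraries, though few passed the criteria. Of 46 genes in the photosystem and light-harvesting list, which also holds a minor Rubisco small subunit gene, 2 were with the split and 0 against. Of 13 genes in the Calvin cycle and photorespiration list none was on either side. The medians of -0.32 and -0.62 stayed negative under TMM scaling, at -0.56 and -0.86. Only 7 of the 46 and 2 of the 13 had a positive difference, and under TMM scaling 2 of the 13 were against the split. The main Rubisco small subunit gene (LOC110109052) had 9766, 9183, 4899 and 4230.0 CPM in the high libraries and 9935, 12669, 8430.3 and 9722 CPM in the low ones. Rubisco activase (LOC110108437) had 2222 to 7785 and 6844 to 10238 CPM, also with overlap. In both genes the overlap came from 2-week libraries of the high side, and the 4-week high libraries were the lowest 2 of all 8. With the split were a chlorophyll a-b binding protein (LOC110114429), at 128, 366, 697 and 239.9 CPM against 66.4, 55.4, 31.9 and 75.2 CPM, and a minor Rubisco small subunit gene (LOC110093044), at 26 to 79.1 and 6.89 to 20.2 CPM. Sucrose and starch genes had 2 with and 1 against of 42, or 1 and 4 under TMM scaling, and sugar transporters 4 and 3 of 44, or 3 and 6. Their medians of -0.11 and 0.01 became -0.35 and -0.22. Sucrose synthase 2 (LOC110092960) was among the most abundant genes with the split, at 868, 1324, 2362 and 2193 CPM in the high libraries and 823, 507, 347 and 673 CPM in the low ones.

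Markers of other tissues were checked for shifts in what was sampled. Of 6 root markers 2 were with the split, SHORT-ROOT 1 (LOC110099657) and SCARECROW 1 (LOC110109011), with differences of 1.85 and 1.92. The summed root list was 77.0 to 169 CPM in the high and 47.1 to 60.7 CPM in the low libraries. Both genes are also expressed in shoots in other plants. Of 8 xylem, phloem and fibre markers 2 were with the split, both SIEVE ELEMENT OCCLUSION B genes, LOC110093531 with 2.68 to 34.9 and 0.647 to 2.12 CPM and LOC110105157 with 43.1 to 117 and 9.61 to 25.9 CPM. The summed list overlapped between the sides, at 193 to 330 and 130 to 214 CPM. Floral organ markers (3 of 29 with, 0 against) summed to 336 to 448 and 377 to 460 CPM, which also overlapped. The part of tissue makeup in the split was not tested.

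The genes against the split were fewer, and many rested on the 4-week low libraries. The defence protein P21-like (LOC110098050), of the thaumatin family, had 6.96, 2.72, 15.4 and 4.94 CPM in the high libraries and 90.1, 42.7, 1020.3 and 729.6 CPM in the low ones. A glucan endo-1,3-beta-glucosidase (LOC110105726), an enzyme that cuts fungal cell walls, had 2.94, 1.67, 3.21 and 1.8 CPM in the high libraries and 5.88, 9.3, 280.4 and 30.9 CPM in the low ones, and its level in the 0.5 mg/L library of 4 weeks stood far above the other low libraries. A mannose-specific lectin-like gene (LOC110095037) had 0.371 to 2.23 and 3.00 to 158 CPM. Yet the list of chitinases, glucanases and pathogenesis-related proteins held more genes with the split (22 of 83) than against it (4). Thaumatin-like protein (LOC110113610) had 68.7, 136, 245 and 149.8 CPM in the high libraries and 0.259, 0.437, 0.0615 and 4.9 CPM in the low ones, and osmotin-like protein (LOC110100242), of the same family as P21, 92.3 to 346 and 2.75 to 16.8 CPM. Summed over the list, the low libraries spanned 1608 to 10526 CPM and the high ones 2490 to 3254 CPM.

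Senescence and vacuolar protease genes had 3 members with and 3 against the split of 47 measured. The cysteine protease SAG39-like (LOC110096351), named for leaf senescence, had 1.72, 0.0618, 0.197 and 0.898 CPM in the high libraries and 9.44, 5.43, 86.7 and 1.92 CPM in the low ones. Its low side ranged widely, and the 1 mg/L library of 4 weeks was barely above the untreated library of 2 weeks. The vacuolar-processing enzyme (LOC110099701) had 275, 411, 246 and 181 CPM in the high libraries and 669.5, 492, 2066 and 766 CPM in the low ones. By contrast XCP2 (LOC110101233), a protease of differentiating xylem, was with the split by 2.74. NAC factors (5 with, 6 against, of 58) and WRKY factors (2 with, 4 against, of 55) were the lists of regulators in which genes against the split were more numerous, with medians of -0.20 and -0.23. Under TMM scaling 9 genes of each list were against the split, and the medians were -0.43 and -0.47. NAC 29 (LOC110105798), related to senescence regulators, had 6.83, 5.07, 4.99 and 5.13 CPM in the high libraries and 11.9, 11.5, 13 and 27.3 CPM in the low ones. WRKY 71 (LOC110110496) had 3.53 to 4.53 and 5.62 to 21.1 CPM, and WRKY 70 (LOC110104566), a defence regulator in Arabidopsis, 0.0639, 0.247, 0 and 0.128 CPM against 1.75, 0.624, 23.3 and 0.663 CPM. WRKY 13 (LOC110097055) was with the split, at 4.66 to 19 and 1.41 to 4.17 CPM.

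Metal-binding and stress genes included the most abundant genes against the split, and of 7 metallothionein and ferritin genes 1 was with it and 2 were against. Metallothionein-like protein type 3 (LOC110098126), which binds metal ions, had 5735, 5169.7, 1854 and 2496 CPM in the high libraries and 6909, 8531, 8979 and 11775 CPM in the low ones. Type 2 (LOC110108912) was with the split, at 624, 539.8, 1697 and 1219.8 CPM against 227, 56, 62.5 and 452 CPM. Ferritin-3 (LOC110101286), which stores iron in plastids, had 192, 179, 85.4 and 53.3 CPM in the high libraries and 222, 244, 592 and 539 CPM in the low ones. The early light-induced protein 1 (LOC114578321), which protects plastids under light stress, had 279 to 919 and 934 to 1251 CPM, and nodulin-related protein 1-like (LOC110115935) 202 to 559.9 and 836 to 1054 CPM. In each of these genes against the split the library without 6-BA at 4 weeks or that at 2 mg/L and 4 weeks was the lowest of all 8.

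Secondary metabolism, which the series was designed around, was mixed. Of 25 beta-glucosidase genes 6 were with the split and 2 against, with a median of 0.28. Under TMM scaling 6 were with it and 5 against, with a median of 0.04. LOC110100117, described as a furostanol glycoside 26-O-beta-glucosidase-like gene, had 5.17, 22.1, 58.6 and 131 CPM in the high libraries and 0, 0.0624, 0.246 and 0.265 CPM in the low ones. The BoGH3B-like gene (LOC110107248) had 3.19 to 46.4 and 0 to 1.92 CPM. Against the split went beta-glucosidase 1-like (LOC110092217), with 112, 168, 200.5 and 193 CPM in the high libraries and 231, 202, 1867 and 429.6 CPM in the low ones, and beta-glucosidase 18 (LOC110095272), with 24.5 to 41.6 and 57.2 to 136 CPM. Flavonoid genes were with the split in 8 and against in 1 of 46 cases, or 7 and 3 under TMM scaling, and chalcone synthase 8 (LOC110107833), the entry enzyme of that pathway, had 58.3 to 95.3 and 7.95 to 38.4 CPM. Cytochrome P450 genes (14 and 7 of 94) and UDP-glycosyltransferases (6 and 3 of 30) had medians of 0.14 each that became -0.09 under TMM scaling, where their counts were 11 and 10, and 4 and 4. P450 71A1 (LOC110093968) was against the split, at 7.54, 4.26, 6.1 and 5.58 CPM against 15.8, 17.3, 59.6 and 239 CPM, and P450 78A5 (LOC110113699), whose Arabidopsis relative promotes organ growth, was with it by 3.92.

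Most lists of further hormones, metabolism and stress held members on both sides. Over all measured genes 11.7% were with the split and 1.11% against it. Laccase, nitrate and heat shock genes were near the first share, at 11.4%, 10.3% and 9.59%, so their counts with the split are not read as a result about these lists. Jasmonate and lipoxygenase genes had 2 with and 1 against of 34, or 1 and 3 under TMM scaling. Among them, the probable linoleate 9S-lipoxygenase 5 (LOC110111010) was with the split, with 436, 271, 404 and 211 CPM in the high libraries and 50.5, 31, 10.5 and 93.9 CPM in the low ones. The 1 against was a putative 12-oxophytodienoate reductase 11 (LOC110096376), of the family that makes jasmonate precursors, at 19.4 to 47.8 CPM in the high libraries and 61 to 99.5 CPM in the low ones. Laccase and lignin genes had 9 and 3 of 79, or 5 and 5 under TMM scaling. The probable 4-coumarate-CoA ligase 2 (LOC110097226) of an enzyme family at the entry to lignin and flavonoid synthesis, and the ligase-like 7 (LOC110109032) were with the split by 1.94 and 2.15. Nitrate, ammonium and amino-acid genes had 12 and 3 of 117, or 10 and 9 under TMM scaling. Named from this list were 2 genes described as nitrate regulatory gene2 (LOC110093267 and LOC110101853), after a regulator of nitrate responses in Arabidopsis, which were with the split by 4.14 and 4.24. Heat shock and chaperone genes had 7 and 1 of 73, or 7 and 3 under TMM scaling, with a class I heat shock protein (LOC110112031) at 2.00, and the median of 0.02 became -0.22 under TMM scaling. Ethylene genes had 11 and 2 of 80, or 10 and 4 under TMM scaling. That list was made by words in descriptions and counts the ANT gene LOC110101314 among those with the split. Gibberellin genes had 6 and 1 of 31, or 5 and 2 under TMM scaling, and abscisic acid genes 4 and 3 of 43, or 3 and 6. Mannan and glucomannan genes had 2 and 0 of 22, or 2 and 1. None of 13 chlorophyll synthesis genes was on either side, and their median of 0.09 became -0.15 under TMM scaling. The abundant glutathione transferase-like IN2-1 homolog B (LOC110106023) was with the split, at 589, 733, 1421 and 1157 CPM against 493, 440.4, 386 and 438 CPM. The bidirectional sugar transporters SWEET4 (LOC110103260) and SWEET2a (LOC110113580) were with it by 1.51 and 1.42, and sucrose synthase 7 (LOC110111733) by 2.14. NAC 21/22 (LOC110104882) and UDP-glycosyltransferase 73C4 (LOC110115775) were against it by -1.31 and -2.57, and UDP-glycosyltransferase 83A1-like (LOC110091879) and a flavonol synthase-like gene (LOC110097028) were with it by 2.15 and 2.65. Expansin-B16 (LOC110104930), a loosener of cell walls, snakin-2 (LOC110095713), a gibberellin-list member, and ribosomal protein L4-1 (LOC110113717) were with it by 3.60, 4.64 and 1.94. A histone H2A-like gene (LOC110104471), an auxin-binding ABP19a-like gene (LOC110094207), mannose-specific lectin 3 (LOC110098731), an H/ACA ribonucleoprotein subunit (LOC110094344) and the response regulator-like APRR5 (LOC110109614), a clock gene in Arabidopsis, had differences of 5.63, 5.13, 4.16, 1.45 and 2.41.

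**Figure D4:**
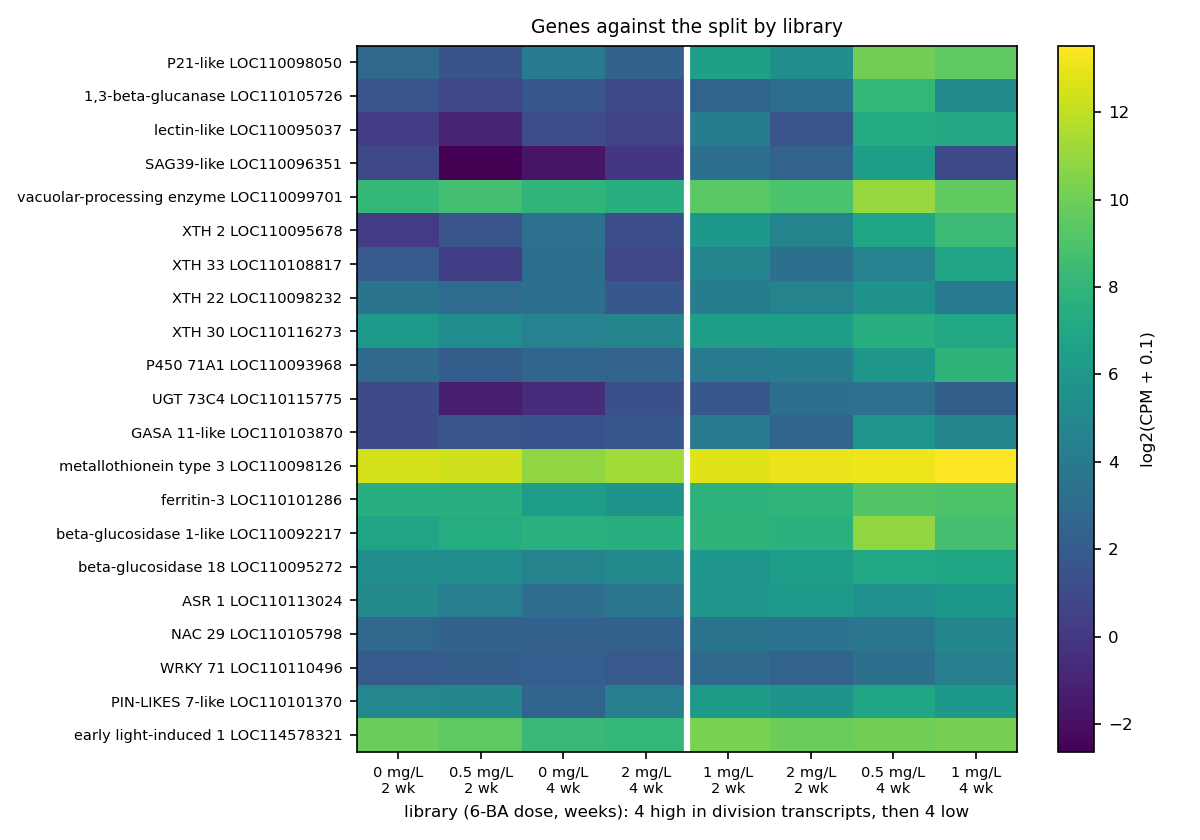
Heat map of log2(CPM + 0.1) for 21 genes against the split (rows) in the 4 high and 4 low libraries (columns, divided by the white line). P21-like, the 1,3-beta-glucanase and the lectin-like gene are highest in the 4-week low libraries, whereas metallothionein type 3 and early light-induced protein 1 are at similar levels in all low libraries and lowest in the 4-week high libraries.

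The heat map of genes against the split shows that they do not share 1 profile. P21-like, the glucanase, XTH 2 and XTH 33 range over more than an order of magnitude among the low libraries, and the abundant stress genes vary more among the high ones.

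The most abundant transcripts of these plantlets lay outside the counts above. A mannose-specific lectin (LOC110104045), a storage and defence protein, had 31323, 8001, 2342 and 13777 CPM in the high libraries and 43262, 38076, 34948 and 22873 CPM in the low ones. A second (LOC110101453) had 30002, 7302, 2249 and 10802 CPM against 42827, 33579, 33587 and 21202 CPM. Both overlapped because the untreated library of 2 weeks was at the level of the low libraries, and both were lowest in the untreated library of 4 weeks. Another lectin (LOC110113710) was with the split, at 4547, 4409, 6852 and 7218 CPM in the high libraries and 1359, 3682, 1377 and 1871 CPM in the low ones. Of 16 measured lectin genes 4 were with the split and 1 against. Their part in the library totals was not tested apart from the TMM scaling.

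Genes closest in profile to the axis were taken by Pearson's r of log2 CPM with the component scores over the 8 libraries, without a test. The highest were the mechanosensitive channel protein 6 (LOC110099102), the inactive receptor kinase LOC110095648 and exonuclease 1 (LOC110098820), a DNA repair enzyme, each with r of at least 0.997. The most negative were plastid-lipid-associated protein 4 (LOC110106219) at -0.981, the D14L esterase (LOC110115658), a receptor for karrikin-type signals in rice, at -0.976, and a C2 domain protein (LOC110112212) at -0.973. D14L had 129.8, 115, 73.9 and 82.5 CPM in the high libraries and 203, 224, 215 and 237 CPM in the low ones.

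The designed factors of the second experiment gave no calls in the quasi-likelihood test of edgeR at a Benjamini-Hochberg adjusted p under 0.05. For 6-BA at any dose 0 of 21267 genes (0%) passed, 498 had an unadjusted p under 0.05, and DESeq2 called 6. For 4 weeks against 2 weeks 0 genes (0%) passed, 1116 had an unadjusted p under 0.05, and DESeq2 called 82. The biological coefficient of variation was 0.499. Each week and the doses of 0.5 and 2 mg/L hold libraries of both sides. These fits use the libraries of the split, so no overlap between them and the genes above is read as a result.

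In the first experiment, whose libraries the split did not use, 6-BA was tested over NAA with 4 libraries against 4. Its libraries are labelled as biological replicates, but whether their plantlets grew in separate vessels is not given, so the p-values measure the spread between these samples. edgeR called 2582 of 19303 genes (13.4%), 1142 higher (5.92%) and 1440 lower (7.46%). By library totals alone 1443 were higher and 1161 lower. Of the 2481 genes with the split 2243 were tested, and 286 rose with 6-BA (12.8%) and 102 fell (4.55%). These are 25.0% of all genes that rose and 7.08% of all that fell. Of the 204 genes against the split that were tested, 31 rose and 31 fell (15.2% each). Genes with the split thus included rising genes at a share above that of all genes and falling genes at a share below it, while genes against it exceeded both shares. The median log2 fold change of the genes with the split was 0.10, far smaller than their differences between the sides. Without water replicate 2, 6-BA replicate 1, 6-BA replicate 2 or NAA plus 6-BA replicate 1 the calls fell to 1542, 1605, 1526 and 1568, and without the first 3 of these the rises among genes with the split were 161, 186 and 148. The falls among genes with the split were 61, 60, 67 and 55 without those 4 libraries and 67 without NAA replicate 2, and the rises among genes against it were 20 without either 6-BA replicate.

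No mitotic cyclin or replication gene passed the threshold with 6-BA in the young plantlets. In edgeR, 0 of 11 mitotic cyclins, 0 of 30 licensing and origin genes, 0 of 44 fork genes and 0 of 10 growth-regulating factors were called. At an unadjusted p under 0.05 there were 2 higher and 1 lower mitotic cyclins, 3 and 2 licensing genes, 2 and 2 fork genes and 4 and 0 growth-regulating factors, and DESeq2 called 0, 1, 0 and 2 genes of these lists. Cyclin-B1-1 (LOC110096329) had 32.8, 29, 25.6 and 33.2 CPM without 6-BA and 35, 37.8, 31.7 and 35.2 CPM with it, a log2 fold change of 0.21. All 8 values lay above those of the low and below those of the high libraries, although the experiments were sequenced and scaled separately and their levels are only set side by side. CDC20.2 (LOC110115801) had 29 to 32.5 and 28.6 to 39.8 CPM, below the 4 high libraries and above the 4 low ones. Kinesins behaved otherwise: 13 of 56 rose and 1 fell, and 10 of the 31 kinesins with the split were among those that rose. Some other division lists also held rises. Of 67 spindle and tubulin genes 7 rose and 2 fell, and of 38 chromosome structure genes 4 rose and 0 fell. Rises numbered 3 of 11 DNA methylation, 2 of 11 cytokinesis and 2 of 27 checkpoint genes, with 0 falls. D-type and other cyclins (21), kinases (14) and E2F-type regulators (17) had 0 rises and 1 fall each. Of 9 kinase inhibitor genes 1 rose and 0 fell, and the gene that rose was with the split. Over all genes tested 5.92% rose and 7.46% fell. The kinesin KIN-10C (LOC110094173) rose by 0.38, but this call was lost under 8 of 12 alternative settings. Core histones had 1 rise and 2 falls among 46.

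Many protoderm and auxin genes rose with 6-BA, and they included genes with the split. Of 32 protoderm and cuticle genes 15 rose and 3 fell with 6-BA, and of the 12 with the split 9 rose and 0 fell. ROC3 (LOC110096006) had 17, 14.5, 13.6 and 17.5 CPM without and 22.9, 27.1, 24.7 and 22.7 CPM with 6-BA, a rise of 0.64 (SE 0.10, adjusted p = 0.00347). The ROC8 gene LOC110111543 rose by 0.70 (SE 0.11, adjusted p = 0.00265), and the fatty acyl-CoA reductase LOC110112054 by 0.50 (SE 0.08, adjusted p = 0.00467). All 4 libraries with 6-BA exceeded all 4 without it in these 3 genes. Auxin genes rose in 32 and fell in 3 of 108 cases, and 9 of the 27 with the split rose and 0 fell. Auxin response factor 5 (LOC110101753) had 22.9, 22.4, 16.8 and 21.1 and 32.5, 33.3, 29.3 and 27.5 CPM, a rise of 0.56 (SE 0.08, adjusted p = 0.00173). YUCCA2-like (LOC110108948) rose by 1.81 (SE 0.29, adjusted p = 0.00375), at 0.63 to 1.66 and 2.6 to 4.05 CPM. ERECTA (LOC110094200) and SCARECROW 1 (LOC110109011) also rose, by 0.47 (SE 0.07, adjusted p = 0.00212) and 0.40 (SE 0.07, adjusted p = 0.00674). Of the 6 root markers, among them SCARECROW 1, however, 1 rose and 2 fell. Shoot meristem and leaf patterning genes rose in 11 and fell in 6 of 80 cases, and of the 17 with the split 3 rose and 2 fell. The ANT gene LOC110101314 rose by 1.23 (SE 0.14, adjusted p = 0.000586), whereas the change of the ANT gene LOC110107204, 0.51, was lost under 6 of 12 alternatives.

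Of 64 cytokinin genes tested in the young plantlets 19 rose and 8 fell with 6-BA, and of the 11 with the split 3 rose and 1 fell. Dehydrogenase 6 (LOC110105324) had 0.664, 0.374, 0.63 and 0.387 CPM without and 22.6, 19.4, 16.4 and 19.7 CPM with 6-BA, a rise of 5.24 (SE 0.19, adjusted p = 6.72e-07). In the same test dehydrogenase 4-like (LOC110102256) was higher by 1.77 (SE 0.12, adjusted p = 3.08e-05) and dehydrogenase 3 (LOC110106158) by 0.97 (SE 0.11, adjusted p = 0.000596), while dehydrogenase 11 (LOC110094204) fell, at -1.02 (SE 0.07, adjusted p = 4.88e-05). None of these 4 was with or against the split. Of the response regulators with the split, ORR6-like (LOC110108467) rose by 1.66 (SE 0.25, adjusted p = 0.00236) and ORR5-like (LOC110103620) by 1.28 (SE 0.23, adjusted p = 0.00595). ORR5-like was near 0 in the older plantlets, with 34 counts summed over the high libraries and 1 over the low ones. Its difference between the sides was 2.72, or 1.27 with counts under 3 set to 3. ORR1 (LOC110108192) rose by 0.73 (SE 0.07, adjusted p = 0.000159) and was higher in the high libraries, 2 of which had no 6-BA. ORR9 (LOC110101124) rose by 0.83 (SE 0.09, adjusted p = 0.00045) and was lower in the high libraries.

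Several genes with the split had the opposite sign with 6-BA in the first experiment. Cytosolic ribosomal proteins fell in 36 and rose in 0 of 192 cases with 6-BA, and 7 of the 47 with the split were among those that fell. The lowest adjusted p-values among genes with the split belonged to genes that fell with 6-BA. Chloroplast transketolase (LOC110115773), an enzyme of carbon metabolism, had 41.4, 46.6, 44.2 and 39.3 CPM without and 18.1, 20.0, 16 and 17.2 CPM with 6-BA, at -1.27 (SE 0.08, adjusted p = 1.50e-05). The BURP domain protein LOC110115695 had 95.5 to 147 and 4.94 to 13.7 CPM, at -3.78 (SE 0.27, adjusted p = 4.75e-05), and the ABC transporter G44 (LOC110104216) 46.6 to 90.2 and 8.32 to 11 CPM, at -2.77 (SE 0.20, adjusted p = 4.96e-05). The furostanol glycoside beta-glucosidase (LOC110100117) fell, at -1.01 (SE 0.19, adjusted p = 0.00788). Among genes against the split, ferritin-3 (LOC110101286), P450 72A15 (LOC110104696) and WRKY 65 (LOC114578713) had the lowest adjusted p-values. They fell, at -1.76 (SE 0.15, adjusted p = 9.13e-05), -1.27 (SE 0.09, adjusted p = 4.88e-05) and -0.90 (SE 0.08, adjusted p = 0.000136). Each was also lower in the high libraries, so their signs were the same in both comparisons. Ferritin-3 had 852, 1259, 1549.9 and 1336 CPM without and 375, 353, 318 and 414 CPM with 6-BA, so its lowest values came with the hormone, while in the older plantlets its highest came in the 4-week libraries at 0.5 and 1 mg/L. PIN-LIKES 7-like (LOC110101370), against the split, rose by 0.91 (SE 0.16, adjusted p = 0.00545) and so had opposite signs.

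**Figure D5:**
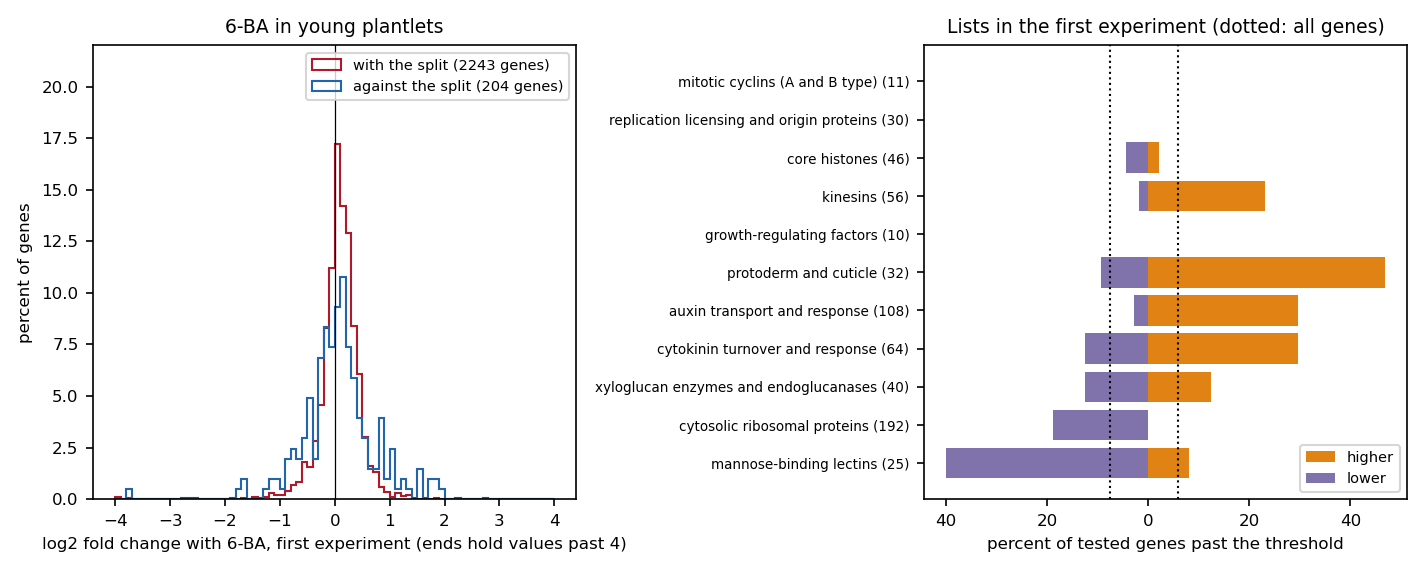
Left, log2 fold changes with 6-BA in young plantlets for the 2243 genes with and the 204 genes against the split, in percent of genes per bin. Right, percent of the tested genes of each list that were higher (orange) or lower (purple) at an adjusted p under 0.05; dotted lines mark all genes, 5.92% and 7.46%, and mitotic cyclins, licensing genes and growth-regulating factors have no bar.

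The histogram of fold changes shows genes with the split in a narrow peak just above 0 and genes against it in a wider spread on both sides. The bars beside it show protoderm, auxin and cytokinin genes to the right of the share of all genes and lectins, of which 10 of 25 fell and 2 rose, to the left.

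NAA, tested over 6-BA in the same libraries, gave 0 calls in edgeR (0%), with 1908 genes at an unadjusted p under 0.05, while DESeq2 called 214. Over all genes DESeq2 called 118 higher and 96 lower. Of these, 13 genes with the split were higher and 6 lower, and 3 genes against it were higher and 3 lower. Genes with the split were 2243 and genes against it 204 of the 19303 tested in edgeR, and these few calls are not read as a result about them.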

How the data were processed

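The series holds 16 RNA sequencing libraries of Dendrobium catenatum plantlets, 8 from each of 2 experiments. The deposited tables give a raw read count for every gene and library, and FPKM (fragments scaled to gene length and library size) that the authors computed from such counts, per the file headers. HISAT2 2.0.6, Cufflinks 2.2.2 and edgeR are named in the submitters' processing notes; the genome build, annotation and strand setting were not given in the sources used here. Depth was 15090869 to 16257836 counts per library in the second experiment and 34289743 to 74461337 in the first.

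The high and low sides follow the measured main axis of variation, and the members and gene lists were chosen with earlier results of these data known. Counts of the second experiment were scaled to CPM by library totals, and log2 values carry a prior count of 1. Genes with the split were higher in every high library than in any low one, with mean log2 CPM differing by 1 or more, and genes against it were lower likewise. The 21267 genes kept by filterByExpr (edgeR, minimum of 10 counts) with a week and 6-BA design were used. The plan named that filter without a design, which needs every library above the minimum, keeps 17377 genes and drops genes near 0 on either side; it was replaced, and kept as an alternative, after the data were seen.

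The tests were edgeR quasi-likelihood tests with Benjamini-Hochberg adjustment and TMM scaling, fitted over all genes of each experiment and checked on simulated data. First-experiment CPM are TMM-scaled. In the first experiment 6-BA and NAA effects were each averaged over the other, and 19303 genes were tested. In the second, 6-BA at any dose and week were terms of 1 additive model, with 1 library per dose and week. The labels number the first-experiment replicates and call them biological, and nothing says that they came from separate vessels, so p-values measure the spread between these libraries, which may be technical. Replicates of a group differed by more than sampling noise. Named genes were, on each side, the 8 with the greatest difference, the 3 with the highest mean CPM, the 3 closest to the main axis and the 2 nearest the threshold; the 2 greatest differences in each gene list; the 3 lowest adjusted p per hormone test; and cytokinin dehydrogenases. Named genes had a description, and those ranked by difference a mean log2 CPM no lower than 1. A further 46 genes were chosen after their values were seen. Gene descriptions are those of the deposited tables, and 26064 gene numbers matched RefSeq.

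Alternatives covered scaling, the filter, the prior count, FPKM, DESeq2, a replicate block and each library left out. Software was R 4.3.3, edgeR 4.0.16, DESeq2 1.42.0, Python 3.11.15, NumPy 2.4.6, pandas 2.3.3 and Matplotlib 3.10.9.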

Additional observations from a re-analysis of the deposited data

Results flagged for a closer look

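In 422 sets of 4 libraries, each 1 gene or list on 1 side of the split, 25 had a library standing far from the other 3 by Dixon's criterion, and chance flags about 1 in 20 groups. The sides were themselves drawn from the data. The low library with 1 mg/L of 6-BA at 4 weeks stood apart most often. It had 3936 CPM summed over the auxin transport and response list. Among growth genes it had 0.861 CPM of a histone H2A-like gene (LOC110104471), 2.25 CPM of cyclin-D3-2 (LOC110104947), 2.19 CPM of the AINTEGUMENTA gene (LOC110107204), 3.64 CPM of growth-regulating factor 6 (LOC110107122) and 5.57 CPM of the auxin exporter PIN1b (LOC110114140). It had 30.1 CPM of cytokinin dehydrogenase 4-like (LOC110102256) and 11.3 CPM of cytokinin dehydrogenase 6 (LOC110105324).

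The same library had 112 CPM of xyloglucan endotransglucosylase 33 (LOC110108817), 38.4 CPM of chalcone synthase 8 (LOC110107833), 4.90 CPM of a thaumatin-like gene (LOC110113610), 2.65 CPM of a DC2.15-like gene (LOC110113173), 2.39 CPM of a BURP domain gene (LOC110115695), 1.52 CPM of a lipid-binding gene (LOC110093376) and 27.3 CPM of NAC 29 (LOC110105798). NAC 29 also stood apart on the high side, at 6.83 CPM without 6-BA at 2 weeks. That library had 826 CPM of cytokinin dehydrogenase 11 (LOC110094204) and 10.9 CPM of expansin-B16 (LOC110104930).

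With 0.5 mg/L at 4 weeks the lone values were 4.86 CPM of expansin-B16 (LOC110104930), 1867 CPM of beta-glucosidase 1-like (LOC110092217), 86.7 CPM of SAG39-like (LOC110096351) and 280.4 CPM of a glucan endo-1,3-beta-glucosidase (LOC110105726). With 1 mg/L at 2 weeks they were 70.7 CPM of FAR3 (LOC110114508) and 11.3 CPM of 4-coumarate-CoA ligase-like 7 (LOC110109032). With 2 mg/L at 2 weeks the summed Calvin cycle and photorespiration genes stood at 26007 CPM.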

How the results depend on the processing

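Library totals gave 2481 genes with the split and 237 against it. Scaling by TMM or by DESeq2 size factors left 1930 and 1934 with it and raised those against to 582 and 585, since this scaling moves the median difference of all genes from 0.23 to -0.01. The count with the split fell to 1483 on log2(FPKM + 1), where 429 were against, and to 1432 with every library above the count minimum, the planned filter, which tests fewer genes; it became the alternative after the data were seen. Leaving out 1 library gave 2334 to 3292 with and 220 to 544 against, with 544 without 0 mg/L at 2 weeks, 410 without 1 mg/L at 2 weeks and 468 without 2 mg/L at 2 weeks. A side of 3 libraries separates more easily by construction. The main axis held 58.8% of the variance, 77.0% over the 1000 most variable genes, and 55.5% to 62.7% with 1 library left out.

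In the first experiment 2582 genes passed for 6-BA, and 1526 to 2409 with 1 library left out. They were 1542 without water replicate 2, 1605 and 1526 without 6-BA replicates 1 and 2, and 1568 without NAA+6-BA replicate 1. Genes with the split that were higher numbered 148 to 261 (161, 186 and 148 without water 2, 6-BA 1 and 6-BA 2), and those lower 55 to 115 (61, 67, 60, 67 and 55 without water 2, NAA 2, 6-BA 1, 6-BA 2 and NAA+6-BA 1). Genes against it that were higher numbered 20 to 34, with 20 without either 6-BA library, and those lower 21 to 29. Fewer samples enter these fits. With a replicate block 2010 genes passed for 6-BA and 0 for NAA. The numbers do not pair the samples: same-numbered libraries correlated at -0.25 to 0.28 in their deviations. For NAA, edgeR called 0 genes, and 1 without NAA replicate 1 or 6-BA replicate 2. DESeq2 called 214 over all genes, 118 higher and 96 lower. Of these, 13 with the split were higher and 6 lower, and 3 against were higher and 3 lower. In the second experiment edgeR called 0 genes for 6-BA and for week, and DESeq2 called 6 and 82. The cause of the difference between tools was not tested.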
